A study of Mus musculus with 6 samples.

Results

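The genes described here build the red cell: enzymes of haem synthesis, carriers of iron and glycine, proteins of the red cell membrane and its skeleton, and a few soluble enzymes and regulators. They were chosen by gene symbol, and where a gene had several probe sets the one with the highest 6-array mean was taken. Of 29 listed genes, 27 were measured by a probe set annotated with that symbol alone, out of 19938 genes measured in all. Ahsp and Epb41 are not analysed here. Expression was measured on Affymetrix mouse whole-transcript arrays, 1 array per sample, in 3 AES wildtype and 3 AES knockout samples. All samples came from C57BL/6 fetal liver cells of embryonic day 14.5 that had been transduced with AML1-ETO9a, a shortened version of the fusion made by the t(8;21) translocation, and transplanted into recipient mice. The cells carried either wildtype or floxed alleles of Aes, which encodes a short co-repressor of the Groucho/TLE family. Tamoxifen was given 4 weeks after transplantation to delete the floxed allele, and GFP+ cells, those expressing the fusion, were sorted from the spleen. Leukaemia had killed the animals from which wildtype cells were taken, whereas knockout cells came from the experiment's end point, so genotype and time of collection cannot be told apart. The labels give no age or sex of the recipients, do not name the Cre driver, and do not say whether replicates came from different animals. P-values therefore measure the spread between these samples.

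Red cell precursors make haem in a chain of enzymes that begins in the mitochondrion, continues in the cytosol and ends in the mitochondrion again. Iron enters through the transferrin receptor and glycine through a mitochondrial carrier, and haem then fills the globin chains. At the same time the cell lays a spectrin skeleton under its membrane and anchors it to the anion exchanger band 3. The transcription factors GATA1 and KLF1 drive most of these genes. AML1-ETO leukaemia is usually classed as myeloid, and the spleen of a mouse is itself a site of red cell production.

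All values are log2 intensities, so a difference of 1 is a doubling, and the probe sets of different genes cannot be compared in level. Values of a group are given in the order of replicates 1 to 3. The array medians lay between 6.47 and 6.65. Aes, listed as Tle5, had 11.13, 11.10 and 11.11 on wildtype replicates 1 to 3 and 8.80, 9.33 and 8.86 on knockout replicates 1 to 3, lower on each knockout array than on any wildtype array. Knockout replicates 1 and 3 stood apart in Y-linked genes. Kdm5d was 5.15 and 5.45 there and between 8.99 and 9.36 on the other 4 arrays. Xist, the RNA that silences an X chromosome in female cells, was 9.11 and 7.41 on wildtype replicates 1 and 2, where Y-linked genes were high too, and between 4.88 and 5.84 on the other 4 arrays. As for the labelled cell type, the stem and progenitor receptor Kit lay between 10.60 and 11.80 and the myeloid factor Spi1 between 10.47 and 10.93 on every array. They were the only 2 of 13 myeloid blast markers above the median on all 6 arrays. Ptprc, the leucocyte antigen CD45, varied from 5.76 on knockout replicate 1 to 9.78 on wildtype replicate 1. The granule enzyme Mpo varied from 6.08 to 10.08 and Cd34 from 5.33 to 9.87 on the same arrays. On knockout replicate 1 all of these lay below that array's median of 6.47. In sorted bulk cells a change in the share of a cell type and a change in RNA per cell cannot be told apart.

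Nearly all erythroid genes lay above the array medians in both groups. On every array, at least 26 of the 27 lay above that array's median, and 26 of 27 did so on all 6 arrays. The exception was Trim10 on knockout replicate 3. The lowest values of Aqp1 (6.93), Epb42 (6.88), Alas2 (6.86) and Hemgn (6.78) lay near the medians, where the background's share is not known. Differences and ranges that rest on these values carry that limit. None of the 27 passed the test between AES knockout and wildtype, and their median difference was -0.0022, beside 0.0029 over all genes. At a threshold of 0.05 on limma's p, adjusted by Benjamini-Hochberg across the whole table, 0 of 27 erythroid genes and 0 of 19938 genes passed, a background of 0 percent. Aes itself (Tle5), the deleted gene, did not pass either. Its difference was -2.12, with a limma p of 1.17e-05 before and 0.234 after adjustment. A gene that did not pass is therefore not shown to be unchanged. At an unadjusted p under 0.05 there was 1 of 27, against a background of 2.53 percent of all genes. Knockout means were higher for 13 of the genes and lower for 14, and 22 of the 27 differences lay within 0.3 of 0. The groups did not overlap for 1 of the 27, against 7.15 percent of all genes (3.51 percent with the knockout group lower, the direction of this gene). The precision differed widely between genes: the 95% interval of the difference lay within 1 log2 unit of 0 for 12 of the 27, while that of Alas2 ran from -3.20 to 3.24. For the other 15 the interval took in a doubling, a halving or both.

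**Figure D1:**
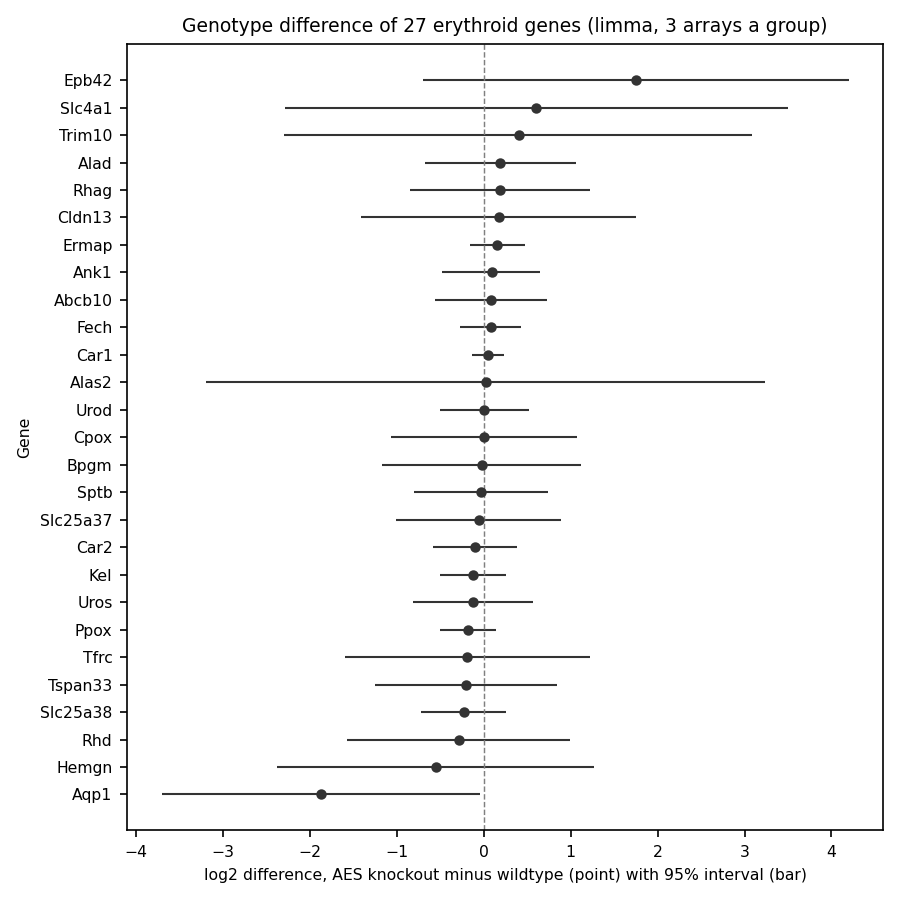
Difference in mean log2 value between AES knockout and wildtype arrays (x axis, knockout minus wildtype) for the 27 erythroid genes (y axis), with points for the limma estimate and bars for its 95% interval, 3 arrays in each group. Of the 27 bars, 1 leaves out 0, that of Aqp1, which runs from -3.71 to -0.04 and did not pass after adjustment.

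Aqp1, the water channel of the red cell membrane, which endothelium also makes, was the gene whose groups did not overlap. It measured 11.21, 9.58 and 10.03 in wildtype and 6.93, 9.38 and 8.89 in knockout samples. Every knockout value lay below every wildtype value, but knockout replicate 2 was only slightly below wildtype replicate 2. The means were 10.27 ± 0.84 (SD, n = 3) and 8.40 ± 1.30 (SD, n = 3), a difference of -1.87 with a standard error of 0.74. The limma p was 0.0466 before and 1 after adjustment, and the exact two-sided permutation test gave 0.1, the smallest value that 3 against 3 allows. The difference was -1.14 without knockout replicate 1 and -1.22 with array weights.

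Epb42, protein 4.2, which ties band 3 to ankyrin, had the largest difference in the other direction. It measured 9.42, 7.10 and 6.88 in wildtype and 9.56, 11.06 and 8.03 in knockout samples. The groups overlapped, since wildtype replicate 1 lay above knockout replicate 3. The means were 7.80 ± 1.41 and 9.55 ± 1.52 (SD, n = 3 each), and the difference of 1.75 had a standard error of 0.99 (limma adjusted p = 1). It was 1.00 without knockout replicate 2, 2.80 with array weights and 2.56 without wildtype replicate 1.

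Among the enzymes of haem synthesis, the first step varied most and the last ones least. Alas2, the erythroid aminolaevulinate synthase that sets the rate of the pathway, measured 10.38, 10.05 and 8.0 in wildtype and 10.12, 11.52 and 6.86 in knockout samples. Both the highest and the lowest value belonged to the knockout group, 4.66 log2 units or 25.3-fold apart, although the lowest lay near the array's median, where the background's share is not known. The genotype means, 9.48 and 9.50, were 0.02 apart. Cpox, the coproporphyrinogen oxidase, had 11.80, 11.58 and 11.27 in wildtype and 12.05, 12.03 and 10.56 in knockout cells, with knockout replicate 3 alone set below the rest. Alad, which joins aminolaevulinate molecules in pairs, had 11.01, 11.77 and 11.01 in wildtype and 11.84, 11.71 and 10.79 in knockout cells. Uros and Urod, which close the porphyrin ring and trim it, spanned 1.11 and 0.77 over the 6 arrays and were both highest on knockout replicate 2 and lowest on knockout replicate 3. Ppox spanned 0.45. Fech, ferrochelatase, which inserts the iron, measured 11.10, 11.46 and 11.30 in wildtype and 11.15, 11.55 and 11.40 in knockout cells and so also spanned 0.45. The differences between genotypes were between -0.18 (Ppox) and 0.19 (Alad) for all 7 enzymes.

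The carriers that supply haem synthesis followed Alas2 in part. Tfrc, the transferrin receptor, measured 10.74, 10.61 and 9.83 in wildtype and 10.80, 10.85 and 8.96 in knockout samples. As with Alas2, the lowest wildtype value was that of replicate 3 and the lowest of all that of knockout replicate 3. Slc25a37, mitoferrin, which brings iron into the mitochondrion, had 11.39, 10.78 and 11.31 in wildtype and 10.51, 11.90 and 10.88 in knockout cells. Its lowest value was on knockout replicate 1, where Alas2 and Tfrc were not low. Abcb10, a mitochondrial transporter needed for haem formation, and Slc25a38, the glycine carrier, spanned 0.86 and 0.75, each lowest on knockout replicate 3. Differences between genotypes for the 4 carriers lay between -0.23 (Slc25a38) and 0.08 (Abcb10).

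Some membrane proteins were nearly flat and others were among the most variable of the 27 genes. Slc4a1, band 3 itself, measured 11.84, 8.60 and 9.91 in wildtype and 10.00, 12.80 and 9.38 in knockout samples. Wildtype replicate 1 and knockout replicate 2 stood well above the other 4 arrays, and the whole range was 4.20, or 18.4-fold. The genotype difference was 0.60 with a standard error of 1.17, and 2.03 with array weights. Rhag, the ammonia channel of the Rh complex, had 12.10, 11.92 and 10.67 in wildtype and 12.12, 11.76 and 11.36 in knockout cells, with its lowest value on wildtype replicate 3. Its partner Rhd had 10.82, 11.12 and 10.69 in wildtype and 10.59, 11.63 and 9.53 in knockout cells, where knockout replicates 2 and 3 lay on either side of all others. Cldn13, a claudin of mouse erythroid cells, had 10.79, 11.07 and 10.36 in wildtype and 11.70, 11.60 and 9.43 in knockout cells. Tspan33, a tetraspanin of late precursors, spanned 1.67 and, like Rhd, was highest on knockout replicate 2 and lowest on knockout replicate 3. The blood group proteins Kel and Ermap spanned only 0.53 and 0.42. Kel measured 11.14, 11.19 and 11.29 in wildtype and 11.30, 11.18 and 10.77 in knockout cells.

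In the membrane skeleton, Epb42 was far more variable than the large structural proteins. Sptb, erythroid beta spectrin, had 10.69, 10.56 and 11.00 in wildtype and 11.22, 10.89 and 10.06 in knockout cells. Ank1, the ankyrin that links spectrin to band 3, had 11.14, 11.03 and 11.00 in wildtype and 11.16, 11.59 and 10.68 in knockout cells. Their wildtype values lay close together, with SDs of 0.23 and 0.08, and the knockout SDs were 0.60 and 0.45. The genotype differences were -0.03 and 0.09.

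Car1 and Car2 are carbonic anhydrases, which hydrate carbon dioxide. Car1 measured 13.63, 13.74 and 13.76 in wildtype and 13.74, 13.73 and 13.80 in knockout cells, a range of 0.17 and the smallest of the 27. These values lie near the top of the array's scale, which ended between 14.22 and 14.37, and differences there may be compressed. Car2 spanned 0.66, or 1.58-fold, again from knockout replicate 2 down to knockout replicate 3. Bpgm, which makes the 2,3-bisphosphoglycerate that loosens oxygen from haemoglobin, had 7.98, 8.82 and 7.76 in wildtype and 7.74, 9.07 and 7.70 in knockout cells. Wildtype replicate 2 and knockout replicate 2 were the high arrays.

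The regulators Trim10 and Hemgn were both widely spread. Trim10, a ubiquitin ligase of terminal erythroid differentiation, measured 7.02, 9.21 and 7.14 in wildtype and 8.63, 9.84 and 6.10 in knockout samples. Hemgn, a nuclear protein of haematopoietic progenitors and erythroid cells, measured 7.99, 9.63 and 8.80 in wildtype and 8.76, 9.22 and 6.78 in knockout samples. Both were highest among wildtype samples on replicate 2, the array on which Slc4a1 was lowest, and both were lowest of all on knockout replicate 3. Alad, Fech, Slc25a38, Rhd, Cldn13 and Bpgm were also highest among wildtype samples on replicate 2. The genes thus did not order the wildtype samples in a single way.

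**Figure D2:**
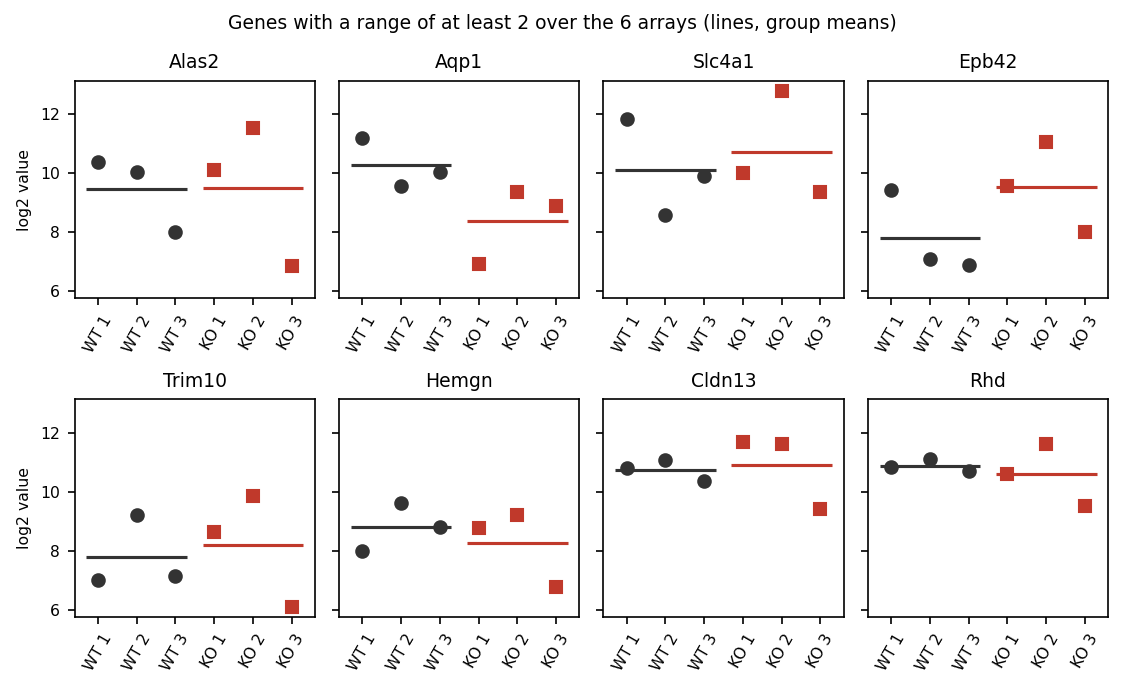
Log2 value (y axis) on each array (x axis) for the 8 erythroid genes with a range of at least 2, with circles for AES wildtype, squares for AES knockout and lines for group means. Knockout replicate 3 is the lowest array for Alas2, Trim10, Hemgn, Cldn13 and Rhd, Slc4a1 and Epb42 peak on knockout replicate 2, and only in Aqp1 are the groups apart.

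Many of the genes shared a wide spread between single arrays, while differences between genotypes were not resolved with 3 arrays in each group. The range over the 6 arrays was at least 1 for 17 of 27 genes, against 15.2 percent of all genes and 22.8 percent of the 10716 genes above the array median on at least 3 arrays. A range of at least 2 was reached by 8 of 27, against 5.19 and 7.67 percent. The median range was 1.37, beside 0.40 over all genes and 0.58 over the brighter ones. Both groups contributed. Within the 3 wildtype arrays alone 8 genes spanned at least 1 (8.41 percent of all genes and 12.2 percent of the brighter ones). Within the 3 knockout arrays 16 did (9.66 and 15.1 percent). The knockout SD exceeded the wildtype SD for 25 of 27 genes, against 54.7 percent of all genes and 60.1 percent of the brighter ones, with median SDs of 0.60 and 0.23. The genes share arrays and cells, so they are not independent, and no test was made of these counts.

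Much of that spread lay between knockout replicates 2 and 3. The highest value belonged to knockout replicate 2 for 16 of 27 genes (11.1 percent of all genes, 14.5 percent of the brighter ones) and the lowest to knockout replicate 3 for 18 of 27 (24.7 and 27.6 percent). Both held for 11 genes (3.63 and 5.06 percent). Knockout replicate 2 lay above all 3 wildtype arrays for 18 genes (20.3 and 25.2 percent) and knockout replicate 3 below all 3 for 20 genes (31 and 32 percent). Knockout replicate 1 lay above all 3 for 10 genes (34.4 and 34.6 percent) and below all 3 for 7 (17.5 and 18.4 percent), shares nearer to those of the whole table. Replicate 2 exceeded replicate 3 for 26 of the 27, Car1 being the exception, by a median of 0.92, and by at least 1 for 13 (2.87 and 4.53 percent). The mean deviation of the 27 genes from their own 6-array means was 0.19, 0.05 and -0.23 on wildtype replicates 1 to 3 and 0.05, 0.67 and -0.73 on knockout replicates 1 to 3. The same opposition held within each role: knockout replicate 2 deviated by 0.37 to 1.27 and knockout replicate 3 by -1.82 to -0.28 on average, widest for the regulators and narrowest for the soluble enzymes. Without knockout replicate 3, 12 genes still spanned at least 1, and without knockout replicate 2, 15 did.

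**Figure D3:**
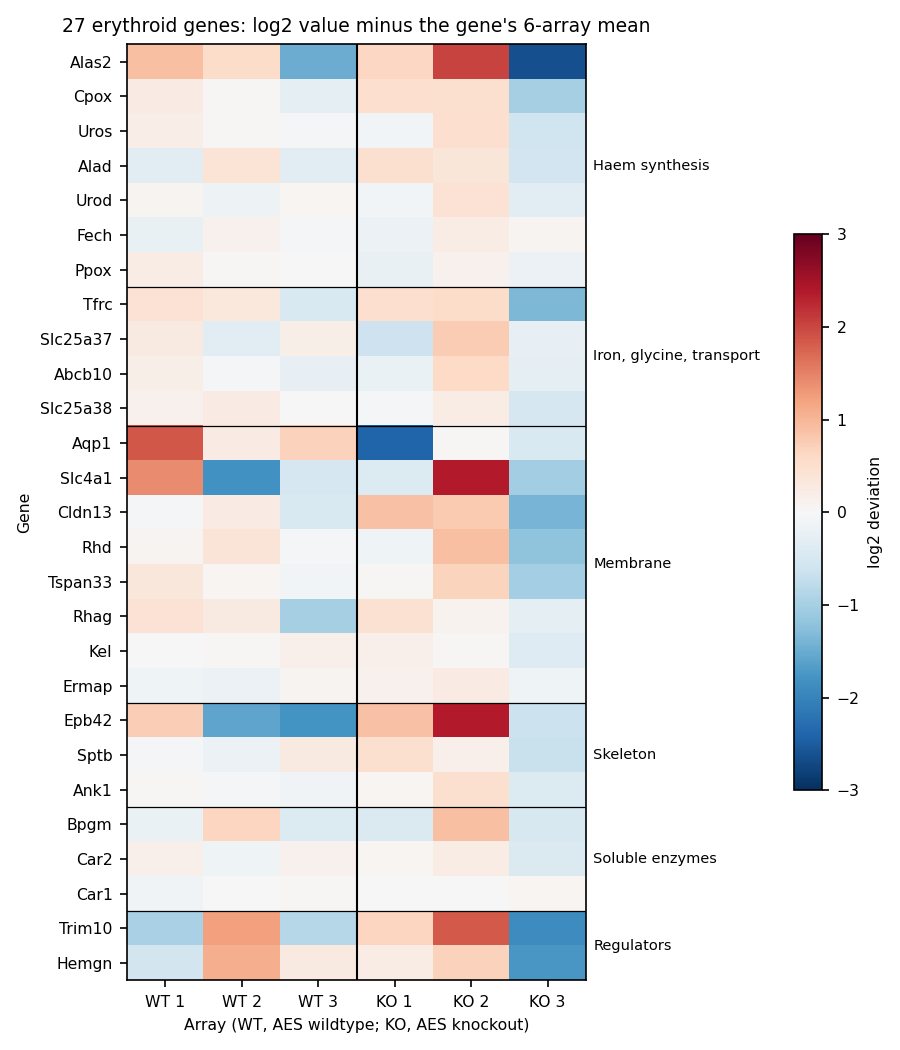
Heat map of log2 values after subtraction of each gene's mean over the 6 arrays, with 27 erythroid genes in rows grouped by role and arrays in columns (WT, AES wildtype; KO, AES knockout), red for above and blue for below the mean. Red dominates the column of knockout replicate 2, where 1 gene lies below its mean, and blue that of knockout replicate 3, where 25 do.

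The 250 bases before the annotated starts of these genes were read from the RefSeq promoter table (build GRCm38.p6). Of the 27 measured genes, 20 had an entry. Ank1, Car1, Car2, Cldn13, Fech, Slc25a37 and Slc4a1 had none. The 6-letter GATA motif AGATAA was searched on both strands. Other sequences that contain GATA were not searched and are not marked, such as the tgataag near the end of the Kel sequence. AGATAA was present for 5 of the 20 genes, 25 percent, and for 11.4 percent of all 27025 genes in the table (9.99 percent of its 32851 promoters). The 5 sequences are shown because they hold the motif, each on the strand of its gene, 5′ to 3′ and ending at the base before the start, with the motif in capitals (TTATCT where it lies on the opposite strand).
Alas2 (chrX:150547167-150547416, plus strand): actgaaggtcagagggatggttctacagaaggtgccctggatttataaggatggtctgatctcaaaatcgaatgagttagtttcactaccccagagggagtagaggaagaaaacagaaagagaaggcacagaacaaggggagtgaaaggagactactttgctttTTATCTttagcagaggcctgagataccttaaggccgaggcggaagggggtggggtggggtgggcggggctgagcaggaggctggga
Epb42 (chr2:121036878-121037127, minus strand): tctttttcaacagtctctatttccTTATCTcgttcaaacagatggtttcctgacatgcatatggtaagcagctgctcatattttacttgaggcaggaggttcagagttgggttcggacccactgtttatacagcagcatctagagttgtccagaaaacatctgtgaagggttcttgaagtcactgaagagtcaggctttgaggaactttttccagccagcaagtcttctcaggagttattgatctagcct
Trim10 (chr17:36869324-36869573, plus strand): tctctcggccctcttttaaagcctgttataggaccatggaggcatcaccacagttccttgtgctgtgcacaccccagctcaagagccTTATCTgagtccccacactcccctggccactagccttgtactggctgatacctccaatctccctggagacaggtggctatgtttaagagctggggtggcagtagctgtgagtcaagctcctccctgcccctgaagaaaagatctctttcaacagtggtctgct
Rhd (chr4:134864286-134864535, plus strand): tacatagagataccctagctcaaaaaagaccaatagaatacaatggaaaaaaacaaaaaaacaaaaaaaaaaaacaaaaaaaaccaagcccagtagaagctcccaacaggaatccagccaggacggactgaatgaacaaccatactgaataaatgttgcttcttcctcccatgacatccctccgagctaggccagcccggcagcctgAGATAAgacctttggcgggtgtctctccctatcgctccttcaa
Kel (chr6:41704326-41704575, minus strand): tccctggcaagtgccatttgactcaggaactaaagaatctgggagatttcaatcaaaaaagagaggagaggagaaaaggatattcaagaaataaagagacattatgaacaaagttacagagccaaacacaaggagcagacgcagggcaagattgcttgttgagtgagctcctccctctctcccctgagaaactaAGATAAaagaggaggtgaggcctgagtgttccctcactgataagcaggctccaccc
The motif began 86 bases before the start of Alas2, 226 before Epb42, 163 before Trim10, 43 before Rhd and 56 before Kel. Its carriers included both variable and flat genes, with ranges over the arrays of 4.66, 4.18, 3.74 and 2.10 for the first 4 and 0.53 for Kel. A match of these letters describes the sequence and does not show that a factor binds there.

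The factors and receptor that govern erythroid genes varied less, and several were lowest on the same array. Gata1 measured 10.84, 11.01 and 10.86 in wildtype and 11.23, 11.14 and 10.61 in knockout cells, a difference of 0.09 with a standard error of 0.18. Klf1 had 10.16, 9.98 and 10.02 in wildtype and 10.39, 10.28 and 9.22 in knockout cells, and Epor, the erythropoietin receptor, 10.19, 10.07 and 9.90 and 10.32, 10.58 and 9.77. All 3 were lowest on knockout replicate 3. Tal1 spanned 0.31 and was slightly higher in every knockout sample (difference 0.13, limma adjusted p = 1). It was the only 1 of the 13 genes of this list whose groups did not overlap, against 7.15 percent of all genes. Gata2, which is also a mast cell factor, spanned 3.97, from 12.24 on wildtype replicate 1 to 8.27 on knockout replicate 1. Gfi1b, a repressor needed for erythroid and megakaryocytic cells, differed by -0.22. Of the 13 genes of this list, 0 passed in either direction, and the median difference was 0.06. On knockout replicate 3, 7 of the 13 had their lowest value, against 24.7 percent of all genes and 27.6 percent of the brighter ones. Their mean deviation was 0.31 on knockout replicate 2 and -0.36 on knockout replicate 3.

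Globins with a probe set of their own were mostly embryonic or minor ones, and 0 of 5 passed (median difference 0.21). The exact level of the adult globins is not analysed here, since their probe sets are annotated with several genes. Hbq1b, a theta globin, measured 7.49, 7.09 and 7.68 in wildtype and 7.43, 8.81 and 6.89 in knockout cells, again highest on replicate 2 and lowest on replicate 3 of the knockout group. Hbq1a had a difference of 0.21, and the embryonic globins Hbb-bh1, Hbb-y and Hba-x of 0.0051, 0.21 and -0.03 at values that all lay between 4.91 and 6.67, near or below the array medians. The median of the 5 globins was -0.04 without knockout replicate 2.

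Other genes of the red cell membrane and skeleton gave 0 of 15 past the threshold, with a median difference of 0.07. Mpp1, a palmitoylated scaffold of the red cell membrane, had 10.59, 10.00 and 10.14 in wildtype and 10.83, 10.69 and 10.73 in knockout cells. The difference was 0.51 (standard error 0.16, limma adjusted p = 1). It was the only 1 of the 15 whose groups did not overlap, against 7.15 percent of all genes. Add1, the alpha adducin that caps the skeleton's actin, differed by 0.38, Stom, stomatin, by -0.26 and Bcam, a laminin receptor, by 0.17, each with an adjusted p of 1 in limma. Of this list 8 of 15 genes were highest on knockout replicate 2, against 11.1 percent of all genes and 14.5 percent of the brighter ones. On knockout replicate 3, 5 of the 15 had their lowest value, against 24.7 and 27.6 percent.

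Genes of haem handling outside the set also showed no difference past the threshold, 0 of 13 with a median difference of 0.04. Their mean deviation was 0.06 on knockout replicate 2 and -0.07 on knockout replicate 3. Alas1, the housekeeping counterpart of Alas2, measured 8.26, 8.03 and 8.42 in wildtype and 8.47, 8.15 and 8.36 in knockout cells. Its range of 0.44 compares with 4.66 for Alas2. Flvcr1, a haem and choline transporter, differed by -0.46, Tmem14c, a carrier for porphyrinogen in the mitochondrion, by -0.35, and Fam210b, a mitochondrial protein of erythroid iron use, by 0.43. Hmox2, the constitutive haem oxygenase, differed by 0.09. Hmox1, the inducible haem oxygenase, which macrophages use to break down red cell haem, measured 8.47, 8.09 and 6.70 in wildtype and 6.75, 7.34 and 9.25 in knockout cells. Hmox1 was highest on knockout replicate 3 and lowest on wildtype replicate 3. On these arrays the 27 erythroid genes deviated by -0.73 and -0.23 on average.

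Iron uptake, storage and iron-sulphur genes were steady by comparison, with 0 of 21 past the threshold, a median difference of 0.04 and a median range of 0.56. The ferritin chains Fth1 and Ftl1 differed by -0.02 and 0.13. Fbxl5, the iron sensor that marks iron regulatory protein 2 for destruction, had a difference of 0.41 and groups that did not overlap (limma adjusted p = 1). It was the only 1 of the 21 without overlap, against 7.15 percent of all genes. Ireb2, which encodes iron regulatory protein 2, differed by 0.14, and the iron chaperones Pcbp1 and Pcbp2 by -0.19 and 0.09. Slc40a1, the iron exporter ferroportin, measured 7.07, 9.76 and 7.58 in wildtype and 9.62, 6.80 and 8.24 in knockout cells. It was lowest on knockout replicate 2, where Alas2 was highest. The Slc40a1 values of 9.76 and 9.62 fell on arrays where Alas2 was 10.05 and 10.12, and so not low. On knockout replicate 3, where Alas2 was lowest at 6.86, Slc40a1 held a middle value. The list's mean deviation was -0.04 on both knockout replicates 2 and 3. A list of late erythroid enzymes and autophagy genes had 0 of 20 past the threshold and a median difference of 0.06. In it Pklr, the red cell pyruvate kinase, differed by 0.54, Fbxo9 by 0.37 and Rsad2, an interferon-induced gene, by -0.58. Of its 20 genes, 11 were highest on knockout replicate 2, against 11.1 percent of all genes and 14.5 percent of the brighter ones. On knockout replicate 3, 8 of the 20 had their lowest value, against 24.7 and 27.6 percent.

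Markers of other cells of the spleen and of dividing cells also varied between arrays. Not all of these lists separated knockout replicates 2 and 3, since neutrophil markers were high on both. The part of these lists in the erythroid values was not tested. Red pulp macrophages engulf old red cells. The mean deviation of 14 markers was 0.23, 0.53 and -0.54 in wildtype and -0.71, -0.49 and 0.97 in knockout samples, highest on knockout replicate 3. On that array 9 of the 14 had their highest value, a share that was not counted over all genes. Adgre1 was highest on wildtype replicate 1 (7.75). Treml4 (8.26), Slc40a1 (9.76), Cd5l and Timd4 were highest on wildtype replicate 2. The log2 of the summed linear level of all 14 ran from 10.48 to 11.74 in wildtype and from 10.45 to 12.18 in knockout cells. The defining factor Spic measured 7.13, 6.96 and 5.62 in wildtype and 5.25, 5.84 and 8.63 in knockout cells, while Timd4 and Cd5l stayed between 5.31 and 6.45, below every array's median. C1qb, Adgre1, Cd163 and Treml4 had differences of -0.87, -0.98, 0.71 and -1.02, each with an adjusted p of 1 in limma. Neutrophil markers (11 of 11 with higher knockout means, 0 past the threshold) had summed levels from 9.09 to 13.03 in wildtype and from 9.05 to 13.48 in knockout cells. Their mean deviation was 1.28, -0.14 and -2.07 in wildtype and -2.16, 1.44 and 1.66 in knockout samples, so that 1 array in each group was far below the rest. Their median difference of 0.63 turned to -0.38 once wildtype replicate 3 was left out. It was 0.11 and 0.03 when knockout replicate 2 or 3 was omitted, and 1.64 and 1.99 when replicate 1 of the wildtype or the knockout group was omitted. Camp, Mmp9, Cd177 and Ly6g differed by 0.51, 0.63, 0.43 and 0.39.

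Averaged over the list, mast cell and basophil markers were highest on wildtype replicate 1 and next on knockout replicate 2. Slc4a1 was also high on these arrays, where the 27 erythroid genes deviated by 0.19 and 0.67 on average. Of the 10 markers, 0 had their highest value on knockout replicate 2. Cpa3 and Prss34 were higher on knockout replicate 3 than on knockout replicate 2, and the other markers were lower. Their mean deviation was 1.97, -1.44 and -0.10 in wildtype and -1.42, 0.98 and 0.0043 in knockout samples, and their summed level ran from 12.37 to 15.34 in wildtype and from 12.50 to 14.65 in knockout cells. None of the 10 passed. Fcer1a, Ms4a2, Tpsb2 and Hdc had differences of -1.97, 0.92, -0.85 and 0.58. Of 14 mitotic genes, a list added after the data were seen, 14 were lowest on knockout replicate 3, against 24.7 percent of all genes and 27.6 percent of the brighter ones. The list's mean deviation was -0.68 there and between 0.02 and 0.25 on the other arrays. Mki67, Cenpf, Ccnb2 and Cdc20 differed by -0.20, -0.29, -0.26 and -0.23, and 0 of the 14 passed. Summed levels of this list ran from 14.74 to 14.89 in wildtype and from 14.05 to 14.93 in knockout cells. Of 8 megakaryocyte and platelet markers, 3 lay above the median on every array and 0 passed. The granule genes Pf4 (5.14 to 6.16) and Ppbp (4.87 to 6.15) lay below it, whereas the platelet receptors Gp5 (9.57 to 10.86) and Treml1 (7.69 to 8.73) were above it. Gp5 and Treml1 were highest on knockout replicate 2 and lowest on knockout replicate 3, like many erythroid genes. They were the only 2 of the 8 that were highest on knockout replicate 2. Ppbp and Vwf were lowest on that array, and Pf4, Ppbp, Itga2b and Itgb3 were highest on wildtype replicate 1. The summed level of the 8 ran from 10.85 to 11.15 in wildtype and from 10.57 to 11.52 in knockout cells. Itga2b and Vwf differed by 0.30 and -0.45. B cell markers had 0 of 9 and T cell markers 0 of 8 past the threshold, with median differences of 0.26 and -0.26. Myeloid blast markers had 0 of 13 past it and a median difference of 0.15, which was -0.28 without wildtype replicate 3, -0.18 without knockout replicate 3 and 0.72 without knockout replicate 1. The Y-linked genes were low on knockout replicates 1 and 3, arrays on which the erythroid genes deviated by 0.05 and -0.73.

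**Figure D4:**
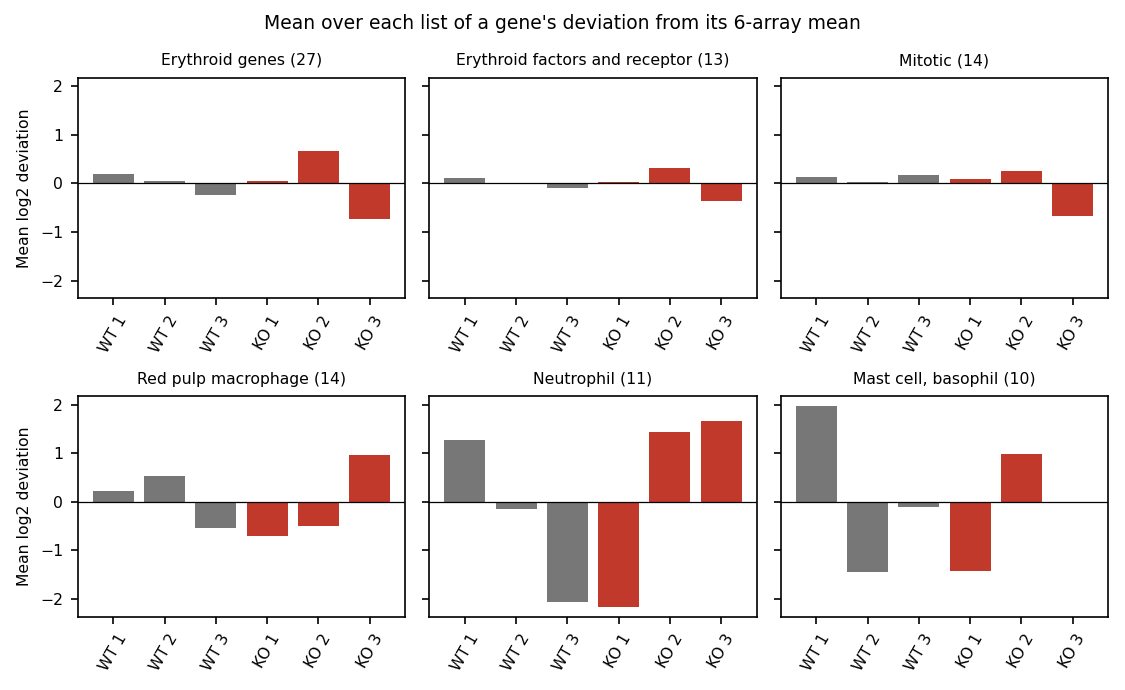
Mean log2 deviation (y axis) on each array (x axis; WT, AES wildtype; KO, AES knockout) over the genes of 6 lists, each gene taken relative to its own 6-array mean, with the number of genes in parentheses. The erythroid bars reach 0.67 on knockout replicate 2 and -0.73 on knockout replicate 3, while the macrophage bars are -0.49 and 0.97 on the same arrays.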

How the data were processed

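RNA of sorted GFP+ spleen cells was measured on 6 arrays, 3 AES wildtype and 3 AES knockout. The authors deposited a table of values that were used as log2 intensities. Log base, background correction, probe summary and normalization were not given in the sources used here. Base 2 was taken from the range of the values (2.67 to 14.37). Of 35512 rows, 1 held no value. Annotation of the platform gave 1 symbol to 21789 rows, several to 1621 and none to 12101. For each of 19938 genes the row with the highest 6-array mean was used. No detection calls were used. Precision is limited by the number of arrays.

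Knockout was compared with wildtype by limma 3.58.1 in R 4.3.3 (lmFit and eBayes, two-sided, no block), with Benjamini-Hochberg adjustment over all genes, and by an exact permutation test for single values. The fit was tested on simulated data. Members, lists and named genes were chosen with earlier results of these data known. By rule, every measured member was named and, of the related lists, genes among the 4 with the smallest p plus a fixed set. Alternatives were other normalizations, a filter on dim genes, array weights, variance settings, the replicate block, the mean of a gene's rows, and leaving out each array. Python 3.11.15 and matplotlib 3.10.9 were used for figures.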

Additional observations from a re-analysis of the deposited data

How the results depend on the processing

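The count of 0 erythroid genes past the threshold held in all 14 alternatives, where the smallest adjusted p of any of the 27 in limma was 0.897. Over all genes the count was 0 to 3 with single arrays left out, the 3 being Tle5, Kdm5d and Uty without knockout replicate 2, and 0 in the other 8 alternatives. The median difference of the 27 genes ran from -0.24 without knockout replicate 2 to 0.24 without knockout replicate 3. It was 0.22 with array weights, where the weights were 2.194 for knockout replicate 2 and 0.573 for knockout replicate 3. With the replicate block, 0 of 27 and 0 of 19938 genes passed and the median stayed at -0.0022. Deviations of same-numbered arrays correlated at -0.259, -0.228 and 0.075 across genes, so the numbers were not taken as pairs. The count of genes with a range of at least 1 was 12 to 17 with single arrays left out. The sign of the genotype difference turned for 21 of the 27 genes in some alternative, none of them past the threshold. With single arrays left out the differences ran from -0.99 to 1.34 for Alas2, -0.26 to 0.46 for Rhag, -0.22 to 0.91 for Cldn13, -0.47 to 0.30 for Bpgm, -0.0095 to 0.52 for Alad, -0.46 to 0.23 for Slc25a37, -0.43 to 1.47 for Slc4a1, -0.14 to 0.32 for Ank1, -0.43 to 1.44 for Trim10, -0.02 to 0.18 for Fech and -0.21 to 0.18 for Urod. They ran from -0.20 to 0.24 for Abcb10, -0.23 to 0.10 for Car2, -0.51 to 0.43 for Tfrc, -0.28 to 0.30 for Sptb, -0.82 to 0.23 for Rhd, -0.59 to 0.25 for Tspan33, -1.04 to 0.18 for Hemgn, -0.23 to 0.04 for Kel, -0.26 to 0.49 for Cpox and -0.40 to 0.15 for Uros. With array weights the differences were 0.07 for Car2, 0.16 for Tfrc, 0.08 for Sptb, 0.16 for Rhd, 0.20 for Tspan33, 0.27 for Bpgm, 0.27 for Cpox, 0.17 for Uros, 0.39 for Slc25a37. Differences that kept their sign but moved by over 1.5 times with these weights were 1.05 for Alas2, 2.03 for Slc4a1, 0.02 for Car1, 0.24 for Ermap, 0.31 for Ank1, 2.80 for Epb42, -0.32 for Hemgn, 0.88 for Trim10, 0.49 for Cldn13, -1.22 for Aqp1, -0.05 for Ppox, 0.24 for Urod, -0.09 for Slc25a38 and 0.37 for Abcb10. With single arrays left out the median differences of the other lists ran from -0.03 to 0.16 for erythroid factors and receptors, -0.04 to 0.25 for globins, -0.08 to 0.31 for other membrane genes, -0.06 to 0.07 for haem handling, -0.0075 to 0.07 for iron genes, -0.01 to 0.21 for late erythroid genes, -0.64 to 0.16 for macrophage markers, -1.17 to 0.77 for mast cell markers, -0.24 to 0.07 for megakaryocyte markers, -0.40 to 0.07 for mitotic genes, 0.02 to 0.61 for B cell markers and -0.42 to -0.15 for T cell markers. With median centring the gene differences were 0.0038 for Bpgm and 0.02 for Cpox, and with quantile normalization -0.05 for Alas2 and -0.03 for Urod. Car1, Ermap, Epb42, Aqp1, Ppox and Slc25a38 kept their sign in all 14. The offset planned for linear values did not apply to logs and was left out.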
